A study of Homo sapiens with 9 samples.

Results

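The nuclear-encoded subunits of mitochondrial complex I were examined as messenger RNA across cells that carried R227Q, H448L or wild-type (WT) SARS2. Members were the protein-coding genes whose names were NDUFA, NDUFB, NDUFC, NDUFS or NDUFV followed by a number, together with NDUFAB1. The rule found 40 of 78894 genes and left out the NDUFAF assembly factors. Of the 40, 37 encode nuclear subunits of the complex. The other name matches were NDUFA4, now assigned to complex IV, its paralog NDUFA4L2, and NDUFC2-KCTD14, a readthrough of NDUFC2 into the neighbouring KCTD14. All 40 passed the filter on low counts, and 16908 genes were tested.

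SARS2 encodes mitochondrial seryl-tRNA synthetase, which loads serine onto tRNAs used to translate the mitochondrial genome. Hap1 is a human cell line with a nearly haploid genome, of chronic myeloid leukaemia origin. All 3 groups shared a deletion of the endogenous SARS2 gene and a doxycycline-inducible copy labelled SARS2-1xFLAG, which had been left off for 6 days by omitting doxycycline. They differed in a constitutively expressed copy labelled SARS2+int14-myc, which was R227Q, H448L or WT, with 3 libraries each. The labels do not say whether a line was 1 clone, or whether libraries came from separate cultures. The p-values here therefore set a difference against the spread among these libraries only. That spread may leave out variation between clones or cultures.

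Poly-A RNA was sequenced by a commercial service. The libraries fall under 2 column prefixes, each with its own table, and these are called submissions here. Submission 4LJFHN held R227Q 2, R227Q 3, all H448L libraries and WT 3, and SDKYMR held R227Q 1, WT 1 and WT 2. Total counts ran from 9900892 to 12991050 per library. The submissions stood apart before any genotype was considered. Transcripts of HBG2, a fetal globin, were at 46.1 to 67.2 CPM (the count as a share of the library total, scaled to 1000000) in the 6 libraries of 4LJFHN, against 0 counts in the 3 of SDKYMR. IGHM, an immunoglobulin chain, was at 0 counts in 4LJFHN and at 13.2 to 18.9 CPM in SDKYMR. The summed level of 8 haematopoietic markers was 17.3 to 24.8 CPM in 4LJFHN and 5.46 to 6.33 CPM in SDKYMR. Most of the 4LJFHN sum came from 1 marker, the globin HBG1, at 13.0 to 19.9 CPM there and 0 CPM in SDKYMR. Of those markers, PTPRC, SPI1, CD33, CD34, GATA1 and ITGAM were below 1 CPM in every library. The mesenchymal list was at 1450 to 1590 CPM in 4LJFHN and 1100 to 1130 CPM in SDKYMR, mostly from VIM. The part of these transcripts in the results was not tested. Tests below carried a term for the submission unless stated otherwise, and differences within a submission, averages of log2 CPM with no test, are given for the genes described. SARS2 itself had 8.68, 8.35 and 7.09 CPM in R227Q libraries, 7.88, 8.68 and 7.93 CPM in H448L libraries, and 7.70, 8.54 and 6.20 CPM in WT libraries. Its counts do not separate the copies, so they do not check which variant a library carried. Whether reads of every copy were counted was not examined. Exons of SARS2 overlap AC011455.2 on the same strand and MRPS12 on the other strand.

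Complex I oxidises NADH, passes the electrons through a chain of iron-sulphur clusters to ubiquinone, and pumps protons across the inner mitochondrial membrane. It is built from an N module, where NADH is oxidised, a Q module, where ubiquinone is reduced, and a membrane arm with a proximal and a distal part. The mitochondrial genome encodes 7 membrane subunits, MT-ND1 to MT-ND6 with MT-ND4L, and the nuclear genes encode the rest, so the complex needs both translation systems. Among the nuclear subunits, 7 are core subunits that bind the cofactors, and the others are accessory.

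The nuclear transcripts moved little. Against WT, 6 of the 40 members changed in R227Q cells, where 17.4% of all tested genes did, and 1 of the 40 in H448L cells, where 7.97% did (edgeR, adjusted p under 0.05). NDUFB4 was 1.22-fold lower in R227Q and 1.13-fold lower in H448L, set against the same WT libraries. For 39 of the 40 members, the 95% interval of the log2 fold change lay within 0.5 of 0 in each of the 3 comparisons between genotypes. The exception was NDUFA4L2, whose counts were only 12 to 19 per library.

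The 250 bases before the RefSeq start (GRCh38.p14) are printed for the 4 members that both edgeR and DESeq2 called in R227Q, since their transcripts differed by both methods. They were chosen after the calls were known. Sequences are written 5′ to 3′ in the direction of transcription. Capitals mark a match, on either strand, to the NRF1 core (GCGCA, any base, GCGC) or to the ETS core CCGGAAGT, which GABP binds. NRF1 and GABP are factors known to bind many promoters of respiratory chain genes.
NDUFB4 (chr3:120596086-120596335, plus strand): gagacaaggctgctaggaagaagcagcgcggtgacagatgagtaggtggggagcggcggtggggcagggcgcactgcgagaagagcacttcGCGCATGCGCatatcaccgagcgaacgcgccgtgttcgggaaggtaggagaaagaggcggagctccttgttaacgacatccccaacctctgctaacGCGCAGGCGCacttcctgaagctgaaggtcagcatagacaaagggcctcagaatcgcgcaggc
NDUFB11 (chrX:47144703-47144952, minus strand): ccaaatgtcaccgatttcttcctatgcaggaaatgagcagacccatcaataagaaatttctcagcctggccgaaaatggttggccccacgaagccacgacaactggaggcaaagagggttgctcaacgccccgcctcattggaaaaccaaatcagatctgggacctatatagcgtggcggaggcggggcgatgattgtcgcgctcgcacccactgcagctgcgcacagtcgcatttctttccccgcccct
NDUFS1 (chr2:206159445-206159694, minus strand): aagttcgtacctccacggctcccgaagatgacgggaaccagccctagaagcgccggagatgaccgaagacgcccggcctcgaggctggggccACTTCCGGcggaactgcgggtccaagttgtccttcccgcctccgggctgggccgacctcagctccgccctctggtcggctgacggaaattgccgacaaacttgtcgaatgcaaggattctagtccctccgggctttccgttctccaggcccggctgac
NDUFA12 (chr12:95003698-95003947, minus strand): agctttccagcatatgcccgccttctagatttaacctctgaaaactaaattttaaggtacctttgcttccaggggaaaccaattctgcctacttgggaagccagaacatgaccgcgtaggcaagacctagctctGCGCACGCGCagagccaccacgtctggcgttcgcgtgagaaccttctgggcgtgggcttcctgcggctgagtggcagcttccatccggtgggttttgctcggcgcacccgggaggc
RefSeq entries matched 33 of the 40 members. An NRF1 core lay in this window of 5 of the 33 (15.2%), namely NDUFA3, NDUFA9, NDUFA11, NDUFA12 and NDUFB4, against 5.53% of 27305 promoters of all genes. An ETS core lay in 2 of the 33, NDUFA13 and NDUFS1, which is 6.06% against 3.64% of all promoters. The YY1 core AAGATGGC was in 0 of the 33 and in 1.37% of all promoters. No window of a member held cores of more than 1 kind. Among the printed sequences, the NRF1 core occurred 2 times before NDUFB4, which was lower in R227Q cells, and 1 time before NDUFA12, which was higher. These matches are letters in a window, and binding was not measured. A single start was used per gene, and the promoters of all genes were not matched to the members for GC content or expression. The 33 include NDUFC2-KCTD14. They also include NDUFA5, whose window (chr7:123601652-123601901) lay away from its annotated gene (chr7:123536997-123558255).

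R227Q cells were compared with WT cells, which asks what the R227Q enzyme changes relative to the wild-type enzyme. Of the 40 members, 2 rose and 4 fell (quasi-likelihood test of edgeR, with Benjamini-Hochberg adjustment over all tested genes and a threshold of 0.05). Of all tested genes 17.4% passed, 7.5% higher and 9.91% lower, so the share of members is close to that background. The median log2 fold change of the 40 was −0.03, against 0.002 over all genes tested. DESeq2 called 4 of the 40 members (NDUFA12, NDUFB4, NDUFB11 and NDUFS1) and 9.14% of all genes, and limma-voom called the same 6 members as edgeR and 17.8% of all genes. With upper-quartile factors the split was 3 higher and 3 lower, since NDUFA4 passed and NDUFB7 did not. The same change of factors moved all genes to 1565 higher and 1335 lower, against 1268 higher and 1676 lower with TMM factors. Without R227Q 1 the members called were 2, NDUFB4 and NDUFB11, and without WT 3 they were 3, NDUFB4, NDUFA12 and NDUFA2. Without the submission term, NDUFB4 was the only member called. Over all genes the calls numbered 1278 without R227Q 1, 1093 without WT 3 and 312 without that term, against 2944 in the main fit.

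**Figure D1:**
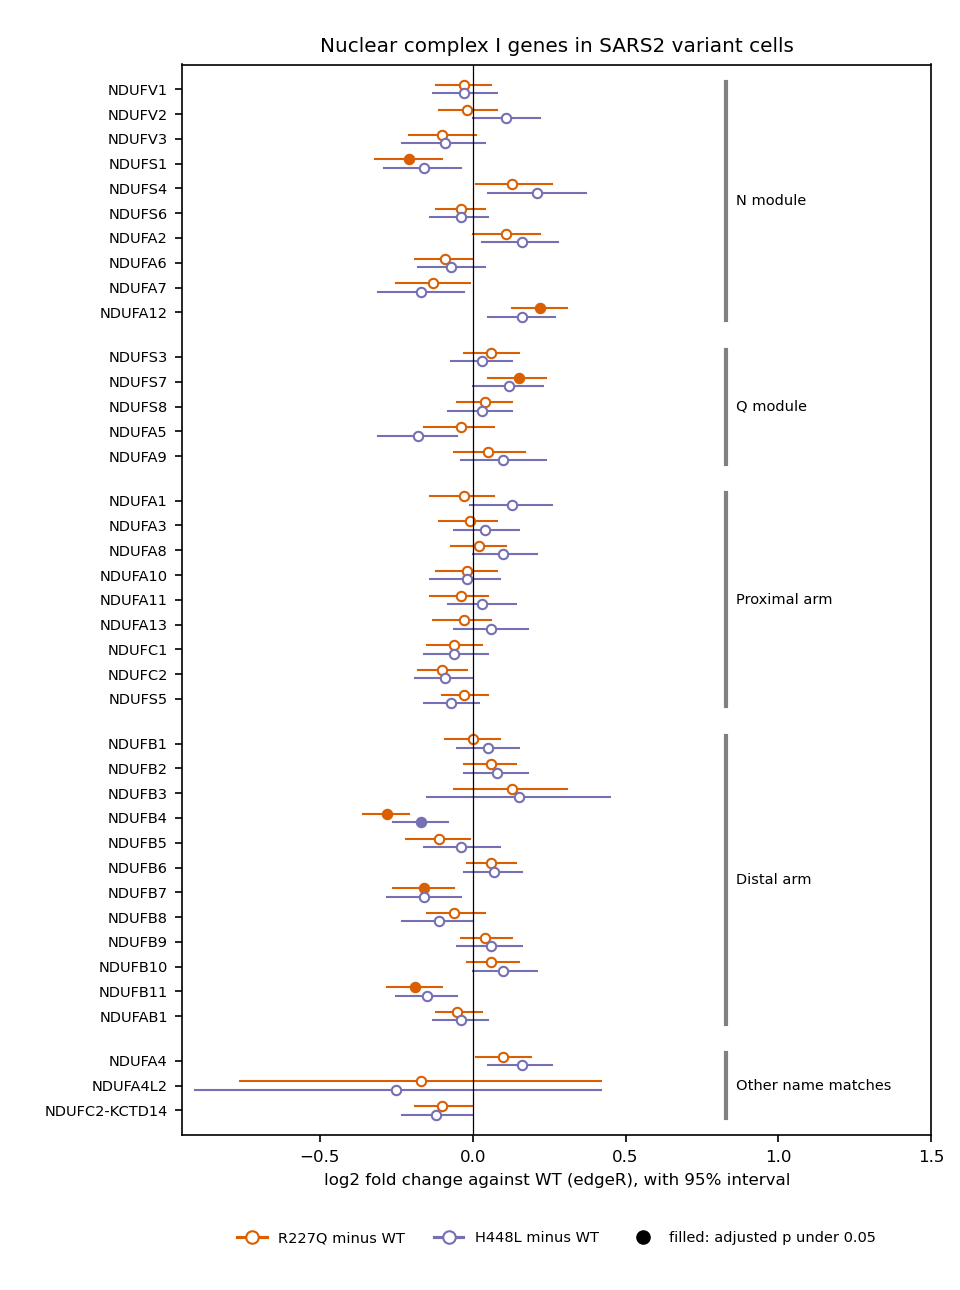
Log2 fold changes (x axis) of 39 of the 40 members in R227Q minus WT and H448L minus WT, with 95% intervals, grouped by module down the page. Filled points have an adjusted p under 0.05, which 6 members reached in R227Q and 1 in H448L, and NDUFA4L2 had the widest intervals.

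The N module, 10 members, held 1 rise and 1 fall in R227Q, where 7.5% of all genes were called higher and 9.91% lower. NDUFA12 is an accessory subunit that joins late in assembly, when it takes the place of the assembly factor NDUFAF2 (gene on chr12:94897055-95003770). NDUFA12 had 172, 137 and 142 CPM in R227Q libraries, against 144, 142 and 122 CPM in WT libraries. R227Q 1 stood above all others, and the groups overlapped across submissions. Within each submission every R227Q library was higher than every WT library, by a log2 difference of 0.25 in SDKYMR and 0.18 in 4LJFHN. The fitted log2 fold change of NDUFA12 was 0.22 ± 0.05 (SE), with an adjusted p of 0.00092. That call was lost in 4LJFHN alone (log2 fold change 0.18, adjusted p 0.15), without R227Q 1 (0.18, adjusted p 0.11) and without the submission term (0.11, adjusted p 0.62).

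NDUFS1, the largest core subunit, carries iron-sulphur clusters along the electron path of the N module (chr2:206114817-206159603). NDUFS1 had 55.1, 63.3 and 64.9 CPM in R227Q libraries, against 64.5, 61.3 and 73.8 CPM in WT libraries. The groups overlapped across submissions, but within each one every R227Q library was lower, by −0.20 in SDKYMR and −0.21 in 4LJFHN on the log2 scale. The fitted log2 fold change of NDUFS1 was −0.21 ± 0.05 (adjusted p 0.0065). Without R227Q 1 its adjusted p was 0.093, and without WT 3 it was 0.13, at log2 fold changes of −0.21 and −0.20. Exons of NDUFS1 overlap EEF1B2 on the other strand and GCSHP3 on its own strand, so its value is uncertain where reads were shared.

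The other core subunits of the N module did not pass. NDUFV1, which binds NADH and the flavin that takes its electrons, had 176, 158 and 172 CPM in R227Q libraries and 176, 179 and 167 CPM in WT libraries. Its log2 fold change was −0.03 ± 0.04 (adjusted p 0.76). NDUFV2, an iron-sulphur protein beside NDUFV1, had 115, 103 and 105 CPM in R227Q libraries and 111, 115 and 108 CPM in WT libraries. Its log2 fold change was −0.02 ± 0.05 (adjusted p 0.87). For both, the libraries of the groups overlapped. Within SDKYMR and 4LJFHN the log2 difference was −0.03 and −0.03 for NDUFV1, and 0.03 and −0.06 for NDUFV2. The remaining N module members, all accessory, had log2 fold changes that ran from −0.13 for NDUFA7 to 0.13 for NDUFS4.

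In the Q module, 1 of 6 members rose, where 7.5% of all genes were called higher. NDUFS7 carries the last iron-sulphur cluster before ubiquinone (chr19:1383527-1395589). NDUFS7 had 163, 158 and 167 CPM in R227Q libraries, against 132, 147 and 153 CPM in WT libraries. The groups did not overlap, and the within-submission log2 difference was 0.21 in SDKYMR and 0.08 in 4LJFHN. The fitted log2 fold change was 0.15 ± 0.05 (adjusted p 0.030). It missed the threshold in 8 of 21 alternatives, among them DESeq2 (0.13), no R227Q 1 (0.57), no R227Q 3 (0.072), no WT 1 (0.17) and no WT 3 (0.055), each given as an adjusted p. Without R227Q 1 its log2 fold change was 0.08, and with offsets for GC content and length it was 0.05. NDUFS7 overlaps exons of AC005329.1 and AC005329.3 on the other strand.

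Other Q module core subunits did not pass. NDUFS3, a structural core subunit of this module, had 209, 179 and 179 CPM in R227Q libraries and 200, 203 and 168 CPM in WT libraries, a log2 fold change of 0.06 ± 0.04 (adjusted p 0.37). NDUFS8, which carries clusters that pass electrons on to NDUFS7, had 204, 237 and 242 CPM in R227Q libraries and 199, 205 and 225 CPM in WT libraries. Its log2 fold change was 0.04 ± 0.04 (adjusted p 0.58). For NDUFS3 and NDUFS8 the R227Q and WT libraries overlapped, and the submission moved the levels more than the variant did. Within SDKYMR and 4LJFHN the log2 difference was 0.04 and 0.08 for NDUFS3, and 0.00 and 0.08 for NDUFS8. Without the submission term the value of NDUFS3 was −0.04.

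The proximal membrane arm, 9 members around MT-ND1 and MT-ND2, had no member called by edgeR, DESeq2 or limma-voom, and 1 at an unadjusted p under 0.05, which 29.6% of all genes had. Its log2 fold changes ran from −0.10 for NDUFC2 to 0.02 for NDUFA8, and 8 of the 9 were below 0. NDUFC2, a membrane subunit, had an adjusted p of 0.090, and it shares exons on the same strand with NDUFC2-KCTD14, whose log2 fold change was also −0.10.

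In the distal membrane arm, 3 of 12 members fell and 0 rose, where 9.91% of all genes were called lower and 7.5% higher. The members of this arm are accessory subunits around MT-ND4 and MT-ND5. NDUFB4 (chr3:120596309-120602500) had 258, 251 and 250 CPM in R227Q libraries, against 311, 310 and 304 CPM in WT libraries. The R227Q libraries lay close together and all below the WT libraries. NDUFB4 averaged 253 ± 4.42 CPM in R227Q cells and 308 ± 3.95 CPM in WT cells (SD, n = 3 each). The log2 fold change was −0.28 ± 0.04 (adjusted p 2.5e-06), with −0.28 within SDKYMR and −0.29 within 4LJFHN. NDUFB4 passed in all 21 alternatives, between −0.31 and −0.24, with adjusted p from 2.3e-10 to 0.034.

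NDUFB4 has 12 annotated pseudogenes by name, and 1 of them, NDUFB4P12, had counts of its own. NDUFB4P12 was at 18.4, 24.0 and 22.1 CPM in R227Q libraries and 23.0, 21.9 and 28.0 CPM in WT libraries, with a log2 fold change of −0.29 (adjusted p 0.0058). No source used here says how reads were divided between the gene and this copy, so both values are uncertain to that extent. With the copy's counts added to NDUFB4, the NDUFB4 call held. The copy is low beside NDUFB4 and had a similar fold change, so this sum cannot show how reads were divided.

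NDUFB11 (chrX:47142216-47145504), an accessory subunit in which mutations are known to cause disease, had 279, 300 and 323 CPM in R227Q libraries, against 301, 324 and 359 CPM in WT libraries. The ranges overlapped across submissions, and within each submission every R227Q library was lower. NDUFB11 had a log2 fold change of −0.19 ± 0.04 (adjusted p 0.0020), with −0.17 within SDKYMR and −0.21 within 4LJFHN. It missed the threshold without WT 3 (adjusted p 0.11) and without the submission term (0.33). Its exons overlap RBM10 on the other strand.

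NDUFB7 (chr19:14566078-14572062), a subunit on the intermembrane-space side, had 154, 124 and 143 CPM in R227Q libraries, against 161, 175 and 151 CPM in WT libraries. R227Q 1 lay above WT 3, so the groups overlapped. Its log2 fold change was −0.16 ± 0.05 (adjusted p 0.025), with −0.13 within SDKYMR and −0.19 within 4LJFHN. This was the least stable of the 6 calls, since it missed the threshold in 9 of 21 alternatives. Without R227Q 1, R227Q 2, WT 2 or WT 3 its adjusted p was 0.13, 0.13, 0.086 and 0.30, and without R227Q 2 its log2 fold change was −0.11. With offsets for GC content and length it was −0.28.

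**Figure D2:**
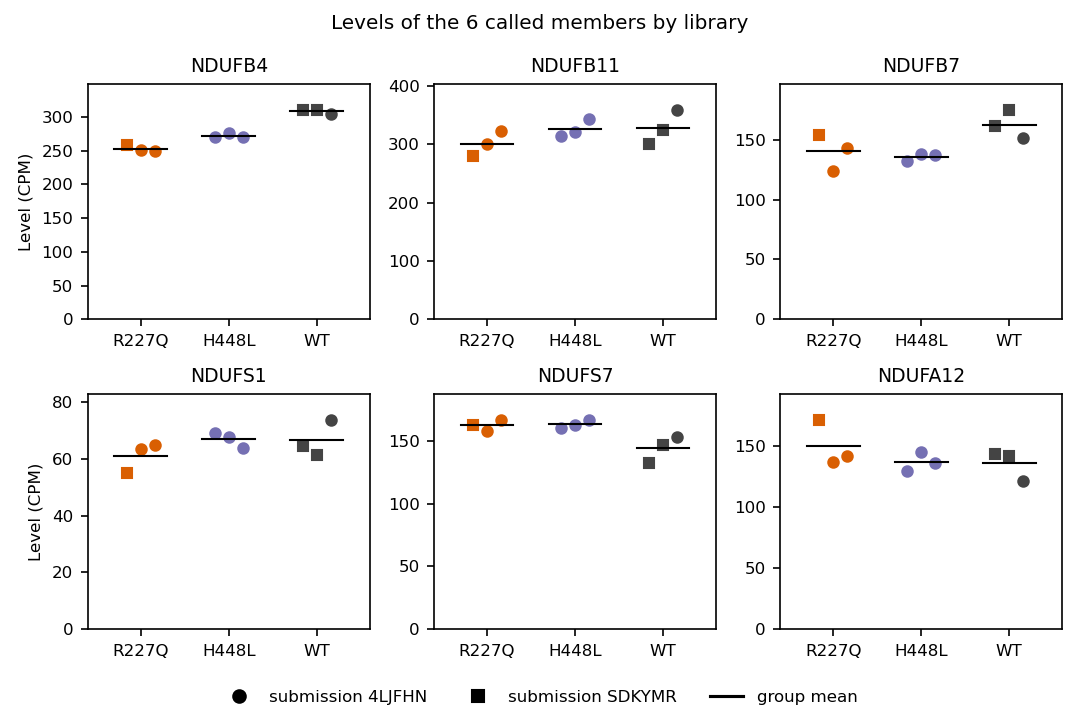
Levels in CPM (y axis, from 0) of the 6 members called in R227Q against WT, per library, with R227Q, H448L and WT side by side on the x axis. Circles are libraries of submission 4LJFHN, squares those of SDKYMR, and lines are group means. In NDUFB4 the R227Q libraries lie at 250 to 258 CPM, below the WT libraries at 304 to 311 CPM.

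H448L cells were compared with WT cells in the same way. Here 1 of the 40 members fell and 0 rose, 2.5% of the members, where 7.97% of all tested genes passed, 2.97% of them higher and 4.99% lower. An unadjusted p under 0.05 was reached by 13 of the 40 members and by 21.5% of all genes. The median log2 fold change of the 40 was 0.03, against 0.006 over all genes. H448L libraries occur only in 4LJFHN, which has a single WT library, so the comparison leans on WT 3 and, through the submission term, on the R227Q libraries.

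The member called was again NDUFB4, with 271, 276 and 271 CPM in H448L libraries, against 311, 310 and 304 CPM in WT libraries. H448L lay between the R227Q and WT libraries without overlapping either. The log2 fold change was −0.17 ± 0.04 (adjusted p 0.012), and −0.17 within 4LJFHN. It missed the threshold without WT 3 (adjusted p 0.28) and without R227Q 1 (0.051), in 4LJFHN alone (0.085), with H448L and WT libraries alone (0.067) and without the submission term (0.082). Its log2 fold change stayed between −0.23 and −0.15 in the 21 alternatives.

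The count of members called in H448L depended on the libraries and settings. It was 0 without WT 3 or without R227Q 1, and 4 without R227Q 2, where NDUFA4 rose and NDUFB4, NDUFB7 and NDUFB11 fell. Of all genes, 253 were called without WT 3, 771 without R227Q 1 and 1321 without R227Q 2, against 1347 with all libraries. The count of members was 2 without any 1 of the H448L libraries. Without H448L 1, H448L 2 or H448L 3, the calls over all genes numbered 1378, 926 and 1202. Limma-voom called 2 members and 8.34% of all genes, and DESeq2 called 1 member and 4.34%. With upper-quartile factors 3 members passed, NDUFA4 and NDUFA12 higher and NDUFB4 lower, and 1236 of all genes. With offsets for GC content and length, 5 members passed, NDUFA4 higher and NDUFA7, NDUFB4, NDUFB7 and NDUFB11 lower. Those offsets called 1478 of all genes.

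The members called in R227Q but not in H448L had the following H448L values. NDUFB11 had 314, 321 and 343 CPM in H448L libraries, against 301, 324 and 359 CPM in WT libraries, with a log2 fold change of −0.15 ± 0.05 (adjusted p 0.066). NDUFB7 had 132, 138 and 137 CPM in H448L libraries, against 161, 175 and 151 CPM in WT libraries, with −0.16 ± 0.06 (0.10). For NDUFB7 no H448L library reached the lowest WT library, while for NDUFB11 the ranges overlapped. NDUFS1 had 69.0, 67.5 and 63.9 CPM in H448L libraries, against 64.5, 61.3 and 73.8 CPM in WT libraries, with −0.16 ± 0.06 (0.11). NDUFS7 had 160, 163 and 167 CPM in H448L libraries, against 132, 147 and 153 CPM in WT libraries, with 0.12 ± 0.06 (0.22). NDUFA12 had 130, 145 and 136 CPM in H448L libraries, against 144, 142 and 122 CPM in WT libraries, with 0.16 ± 0.05 (0.060). Within 4LJFHN the H448L log2 difference was −0.16 for NDUFB11, −0.17 for NDUFB7, −0.17 for NDUFS1, 0.07 for NDUFS7 and 0.14 for NDUFA12. Without the submission term the value of NDUFA12 was −0.06, and those of NDUFB11, NDUFB7 and NDUFS1 were −0.06, −0.32 and −0.05. The NDUFS7 value was 0.07 without R227Q 1 and 0.20 without WT 3. Both variants are set against the same WT libraries, so these values are not independent of those for R227Q.

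Other core subunits did not pass in H448L. NDUFV1 had 159, 165 and 174 CPM in H448L libraries and 176, 179 and 167 CPM in WT libraries, a log2 fold change of −0.03 ± 0.05. NDUFV2 had 111, 117 and 120 CPM in H448L libraries and 111, 115 and 108 CPM in WT libraries, a log2 fold change of 0.11 ± 0.05. NDUFS3 and NDUFS8 had log2 fold changes of 0.03 ± 0.05 each, and without the submission term the value of NDUFS3 was −0.17. NDUFS3 was at 183, 169 and 178 CPM in H448L libraries and 200, 203 and 168 CPM in WT libraries. NDUFS8 was at 223, 239 and 250 CPM in H448L libraries and 199, 205 and 225 CPM in WT libraries. Within 4LJFHN the log2 difference was −0.03 for NDUFV1, 0.08 for NDUFV2, and 0.05 each for NDUFS3 and NDUFS8.

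Outside the core, the H448L values nearest to the threshold were those of NDUFA4 at 0.16 ± 0.05 (adjusted p 0.051), of NDUFA12 and NDUFB11 as given above, and of NDUFA5 of the Q module at −0.18 ± 0.06 (0.084) and NDUFS4 of the N module at 0.21 ± 0.08 (0.089). Within 4LJFHN the log2 difference was 0.17 for NDUFA4, −0.18 for NDUFA5 and 0.15 for NDUFS4. NDUFS4 is an accessory subunit that helps fix the N module to the rest of the complex.

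H448L and R227Q cells were then compared directly. None of the 40 members passed by edgeR, DESeq2 or limma-voom, where 0.207% of all tested genes passed by edgeR (0.0828% higher and 0.124% lower), 0.319% by DESeq2 and 0.242% by limma-voom. By edgeR, 4 of the 40 members were at an unadjusted p under 0.05, as were 10.9% of all genes, so their share is close to that background. Those were NDUFB4 (log2 fold change 0.11 ± 0.04, adjusted p 0.23), NDUFA1 (0.16 ± 0.06, 0.27), NDUFV2 (0.13 ± 0.05, 0.27) and NDUFA5 (−0.13 ± 0.06, 0.34). For NDUFB4 the libraries did not overlap, at 271, 276 and 271 CPM in H448L and 258, 251 and 250 CPM in R227Q. Its 95% interval was 0.03 to 0.19. Leaving NDUFA4L2 aside, the intervals of the members spanned −0.25 to 0.30, and log2 differences beyond those bounds lie outside every one of them. The intervals of those 4 members did not include 0, before any adjustment for the number of genes.

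The submission was the larger source of variation among the members. Between 4LJFHN and SDKYMR, 29 of the 40 members passed (72.5%, 8 higher and 21 lower), where 43.8% of all tested genes passed (20.8% higher and 23.0% lower). The median size of the log2 difference among the members was 0.23 between submissions, and 0.23 over all genes tested. For the genotypes it was 0.06 in R227Q against WT, 0.10 in H448L against WT and 0.04 in H448L against R227Q.

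A pair of members differed over 2-fold between submissions, and both are small membrane-arm subunits. NDUFB3, of the distal arm, had 6.22 to 8.30 CPM with a median of 7.92 in the 6 libraries of 4LJFHN, against 37.4 CPM in R227Q 1, 30.9 in WT 1 and 34.4 in WT 2. Its log2 difference was −2.29 ± 0.10 (adjusted p 1.1e-17). NDUFA1, of the proximal arm, had 47.3 to 58.4 CPM with a median of 52.8 in 4LJFHN, against 127, 132 and 124 CPM in R227Q 1, WT 1 and WT 2. Its log2 difference was −1.39 ± 0.05 (adjusted p 2.7e-19). In both genes the ranges of the submissions lay far apart, and each genotype followed its submission.

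Other members went the opposite way. NDUFB1, a short subunit of the distal arm, had 234 to 250 CPM with a median of 246 in 4LJFHN, against 127, 134 and 122 CPM in R227Q 1, WT 1 and WT 2, a log2 difference of 0.85 ± 0.04 (adjusted p 9.0e-16). NDUFA3, of the proximal arm, had 142 to 154 CPM in 4LJFHN and 87.6 to 88.9 CPM in SDKYMR, a log2 difference of 0.67 ± 0.04 (2.7e-13). For NDUFA3 and NDUFB1 the R227Q and WT values within a submission differed by at most 0.02 on the log2 scale. Across the 40 members, Spearman's rho of the submission difference was 0.19 with transcript length and 0.17 with GC content. These points share the same libraries and are a description. Of the 6 members called in R227Q, NDUFA12 and NDUFB7 were lower in 4LJFHN, NDUFS1 and NDUFB11 were higher, and NDUFB4 and NDUFS7 did not pass.

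**Figure D3:**
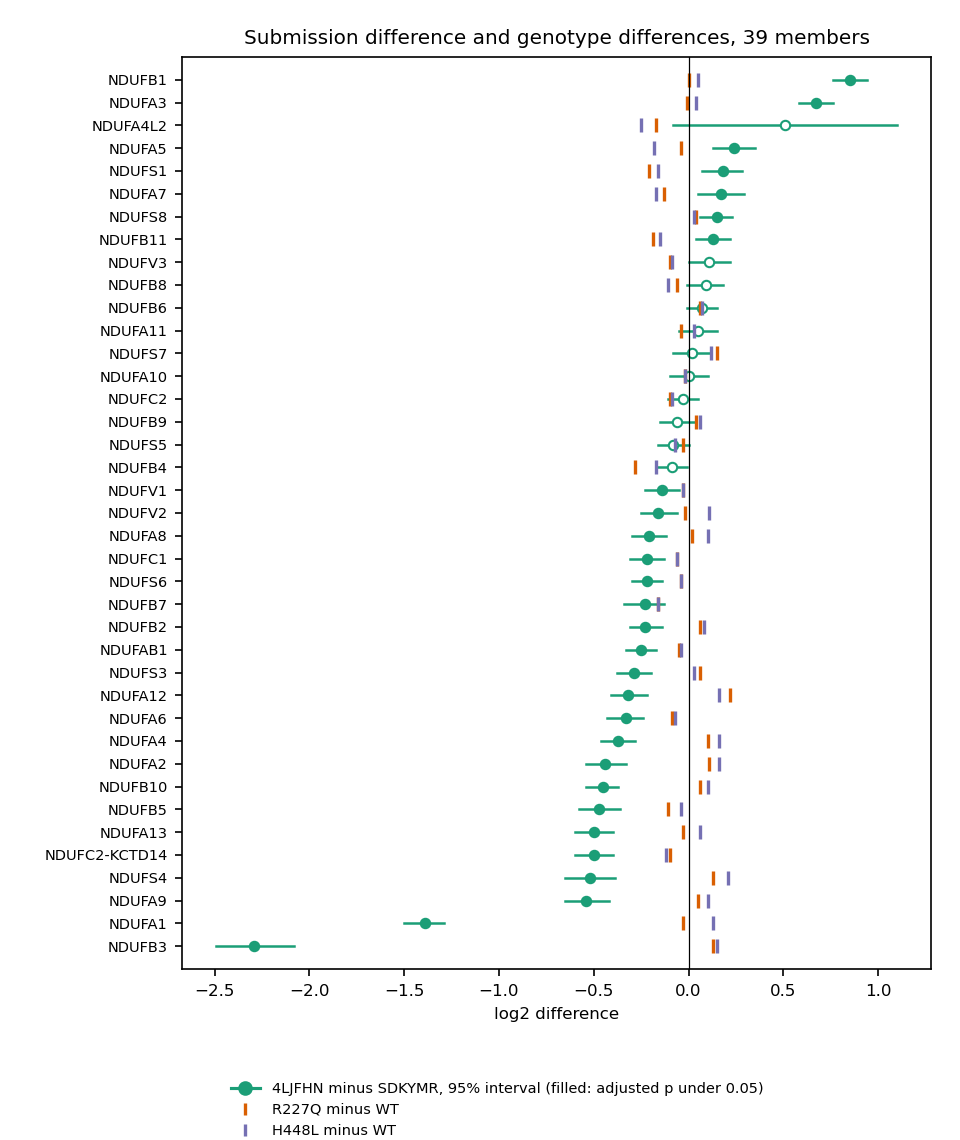
Log2 difference between submissions, 4LJFHN minus SDKYMR, of 39 of the 40 members with 95% intervals (green, filled where the adjusted p was under 0.05), ordered by size. Bars mark R227Q minus WT and H448L minus WT, which lie between −0.28 and 0.22 for every member shown, while NDUFB3 at −2.29 and NDUFB1 at 0.85 mark the ends of the submission range.

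Whether the R227Q difference itself depended on the submission was tested as an interaction. It was called in 0 of the 40 members and 0.0% of all genes by edgeR, with 3 members at an unadjusted p under 0.05, NDUFA2, NDUFA9 and NDUFC1, against 4.35% of all genes. Limma-voom also called 0 members, with 3 under that p. For NDUFA2 the R227Q log2 difference was 0.22 in SDKYMR and −0.03 in 4LJFHN. SDKYMR holds 1 R227Q library and 4LJFHN 1 WT library, so single libraries set both arms of this test.

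The summed level of the 37 nuclear subunits gives the members as a whole, without a test. It was 5979, 5642 and 5729 CPM in R227Q libraries, 5695, 5834 and 5967 CPM in H448L libraries, and 5975, 6004 and 5834 CPM in WT libraries. Within SDKYMR, R227Q 1 lay between WT 1 and WT 2 in these CPM values, which are not scaled by TMM. Within 4LJFHN, R227Q 2 and R227Q 3 were below WT 3, and the H448L libraries were on both sides of it. All 40 name matches together took 0.602% to 0.645% of counts. Scaled by TMM, their sum was 6621 CPM in R227Q 1, below WT 1 at 6657 and WT 2 at 6665. In 4LJFHN the scaled sum was 5944 and 6066 CPM in R227Q 2 and R227Q 3, against 6176 CPM in WT 3. It was 6036, 6068 and 6232 CPM in the H448L libraries.

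The sums by module, also without a test, differed in direction. The N module had 1037 and 1070 CPM in R227Q 2 and R227Q 3, against 1081 CPM in WT 3, while R227Q 1 at 1197 CPM lay above WT 1 at 1153 and WT 2 at 1172. The distal arm had 2254 and 2281 CPM in R227Q 2 and R227Q 3, against 2363 CPM in WT 3, and in SDKYMR it had 2309 CPM in R227Q 1, against 2405 and 2400 CPM in WT 1 and WT 2. The proximal arm had 1544 and 1547 CPM in R227Q 2 and R227Q 3, against 1607 CPM in WT 3, while R227Q 1 at 1667 CPM lay between WT 1 at 1671 and WT 2 at 1657. The Q module went the other way, with 807, 807 and 831 CPM in R227Q libraries, against 745, 775 and 784 CPM in WT libraries.

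The mitochondrially encoded subunits, which are translated with the help of SARS2, are given for reference. Of 7 genes, 4 rose and 1 fell in R227Q, where 7.5% of all genes were called higher and 9.91% lower, and 2 rose in H448L, where 2.97% were called higher. Their counts are uncertain where reads also match nuclear copies of mitochondrial DNA. MT-ND4 had 5415, 4551 and 4402 CPM in R227Q libraries, 4397, 4270 and 4470 CPM in H448L libraries, and 4227, 3859 and 3391 CPM in WT libraries. Both variants lay above every WT library. The log2 fold change of MT-ND4 was 0.40 ± 0.04 in R227Q (adjusted p 5.1e-09) and 0.35 ± 0.04 in H448L (2.5e-06). MT-ND4L, named after its value was seen, did not pass, at 0.06 ± 0.05 in R227Q (0.47) and 0.00 ± 0.06 in H448L (0.98). MT-ND2 had log2 fold changes of 0.27 ± 0.04 in R227Q (6.2e-05) and 0.18 ± 0.05 in H448L (0.026), and MT-ND1 of 0.18 ± 0.04 (0.0051) and 0.11 ± 0.05 (0.23). Within SDKYMR and 4LJFHN the R227Q log2 difference was 0.41 and 0.39 for MT-ND4, 0.28 and 0.27 for MT-ND2, and 0.18 and 0.18 for MT-ND1. Within 4LJFHN the H448L log2 difference was 0.35 for MT-ND4, 0.18 for MT-ND2 and 0.10 for MT-ND1. Without the submission term every one of these calls was lost, at 0.30 for MT-ND4 (adjusted p 0.20), 0.07 for MT-ND2 (0.87) and 0.02 for MT-ND1 (0.97) in R227Q, and at 0.14 for MT-ND4 (0.43) in H448L. The H448L value of MT-ND2 was −0.25 without that term, and missed the threshold by DESeq2 (adjusted p 0.26) and without R227Q 1 (0.11), H448L 1 (0.12, log2 fold change 0.12), WT 2 (0.052) or WT 3 (0.32). The R227Q value of MT-ND1 missed it by DESeq2 (0.13) and without R227Q 1 (0.10) or WT 3 (0.12). MT-ND3, named after its value was seen, was the gene that fell, at −0.21 ± 0.07 in R227Q (0.040). All 7 were lower in 4LJFHN than in SDKYMR, so the ratio of the mitochondrial to the nuclear sum is compared within a submission. In 4LJFHN it was 2.36 and 2.31 in R227Q, 2.47, 2.11 and 2.15 in H448L, and 2.01 in WT. In SDKYMR it was 2.93 in R227Q, against 2.65 and 2.42 in WT.

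**Figure D4:**
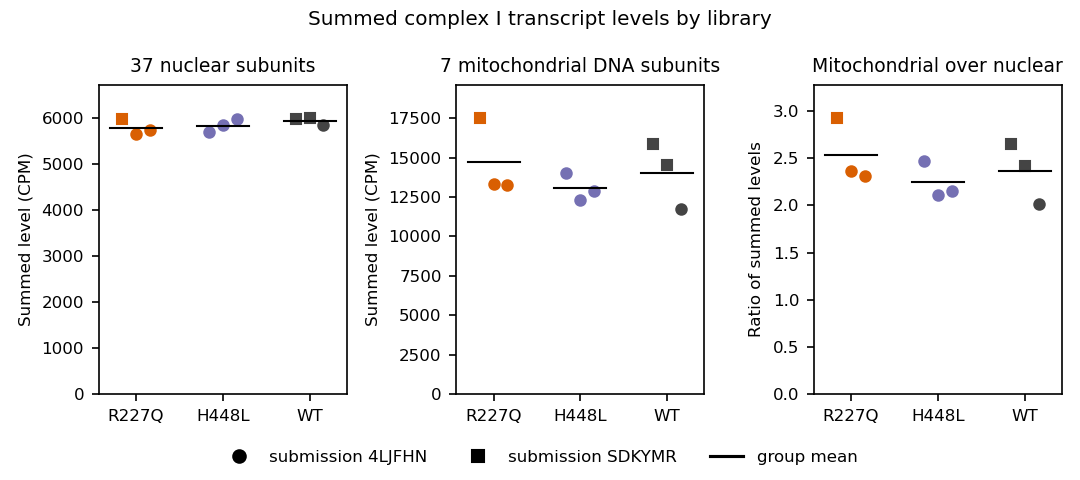
Summed levels in CPM (y axes, from 0) of the 37 nuclear subunits and of the 7 mitochondrial DNA subunits, and the ratio of the sums, per library, with R227Q, H448L and WT on the x axis. Circles are 4LJFHN and squares SDKYMR, lines are group means, and the nuclear sums stay between 5642 and 6004 CPM.

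Among 21 complex I assembly factors, proteins that help build the complex without staying in it, 6 fell and 1 rose in R227Q, where 9.91% of all genes were called lower and 7.5% higher, and 3 fell in H448L, where 4.99% were called lower. TIMMDC1, a membrane factor for the arm around MT-ND1, had log2 fold changes of −0.23 ± 0.04 in R227Q (adjusted p 0.00036) and −0.20 ± 0.05 in H448L (0.013). NDUFAF8, the partner of NDUFAF5, had −0.19 ± 0.04 in R227Q (0.0016) and −0.24 ± 0.05 in H448L (0.0017). NDUFAF3, an early Q module factor, had −0.25 ± 0.05 in R227Q (0.00070) and −0.24 ± 0.06 in H448L (0.011). Within SDKYMR and 4LJFHN the R227Q log2 difference was −0.19 and −0.27 for TIMMDC1, −0.21 and −0.17 for NDUFAF8, and −0.28 and −0.21 for NDUFAF3. Within 4LJFHN the H448L log2 difference was −0.22 for TIMMDC1, −0.23 for NDUFAF8 and −0.21 for NDUFAF3. Without the submission term none of these 3 factors passed, with adjusted p from 0.068 to 0.24, and TIMMDC1 was at −0.35 in R227Q and −0.46 in H448L. The factor that rose in R227Q was FOXRED1, named after its value was seen, at 0.19. In R227Q the adjusted p was 0.056 for TIMMDC1 without WT 3, and without R227Q 1 it was 0.084 for NDUFAF8 and 0.081 for NDUFAF3. In H448L the adjusted p without WT 3 was 0.41 for TIMMDC1, 0.081 for NDUFAF8 and 0.12 for NDUFAF3. NDUFAF3 in H448L also missed the threshold without R227Q 1 (0.082) or H448L 2 (0.055).

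Of 8 regulators of respiratory gene expression, 7 were tested and 2 fell in R227Q, where 9.91% of all genes were called lower. PPARGC1B, a coactivator of respiratory genes, had a log2 fold change of −0.40 ± 0.12 in R227Q (adjusted p 0.020) and −0.30 ± 0.14 in H448L (0.20). GABPB1, a subunit of the ETS factor GABP, had −0.24 ± 0.08 in R227Q (0.029) and −0.21 ± 0.10 in H448L (0.20). YY1 had −0.11 ± 0.04 in R227Q (0.088) and −0.13 ± 0.05 in H448L (0.13). GABPA, another subunit of GABP, and NRF1 are named after their values were seen, and neither passed. GABPA had −0.02 ± 0.08 in R227Q (0.89) and 0.03 ± 0.10 in H448L (0.90). NRF1 had −0.19 ± 0.09 in R227Q (0.14) and −0.05 ± 0.10 in H448L (0.86). Within SDKYMR and 4LJFHN the R227Q log2 difference was −0.43 and −0.36 for PPARGC1B, and −0.33 and −0.13 for GABPB1. Within 4LJFHN the H448L log2 difference was −0.28 for PPARGC1B and −0.14 for GABPB1. Without R227Q 1 the R227Q value was −0.36 for PPARGC1B (adjusted p 0.22) and −0.13 for GABPB1 (0.58), so that of GABPB1 fell in size while that of PPARGC1B moved little. Both also missed the threshold by DESeq2, where the adjusted p was 0.14 for PPARGC1B and 0.17 for GABPB1, and without the submission term, where it was 0.13 and 0.22 at log2 fold changes of −0.38 each. PPARGC1B also missed it without WT 1 (0.059) or WT 3 (0.14), and GABPB1 without WT 1 (0.10) or WT 3 (0.050).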

How the data were processed

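RNA of 9 Hap1 libraries, 3 per genotype, was sequenced after poly-A capture and tagmentation, per the labels' protocols. Per the submitters' processing notes, the genome was GRCh38. No source used here names the aligner or counter, or says whether strand was used. The authors deposited estimated counts per gene and CPM, per the file headers, in 1 table per submission. Each CPM equalled the count over the library total within a tolerance of 1e-05, and 33 of the 40 members had fractional counts in some library. Counts were rounded, and 92 spike-in entries were left out. Gene positions came from GENCODE on GRCh38.

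The members and lists were chosen with earlier results of these data known. Genes were kept by filterByExpr, scaled by TMM (factors 0.969 to 1.025), and fitted with edgeR 4.0.16 in R 4.3.3 on all 9 libraries with group and submission (5 residual degrees of freedom, common biological coefficient of variation 2.96%). Tests were two-sided quasi-likelihood tests with Benjamini-Hochberg adjustment over 16908 genes. Standard errors are log2 fold changes over the root of F. Within-submission differences compare averages of log2 CPM (prior count 2), without a test. Alternatives used DESeq2 1.42.0, limma-voom (limma 3.58.1), other factors, filters, terms, libraries and offsets. No pair of libraries within a group was identical: chi-square over its degrees of freedom was 1.41 to 2.23 for libraries of a group in 1 submission and 17.9 to 18.9 across submissions. Values per library are given for members called in any genotype comparison and for core subunits. A single member is counted but not reported here by name. Of each other list, the 3 genes with the smallest p are named, and other genes are named as chosen after their values were seen.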

Additional observations from a re-analysis of the deposited data

How the results depend on the processing

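Across 21 alternatives, the 46 fold changes of named genes gave 962 values. Of these, 860 kept their side of the threshold and either kept their direction or moved across 0 by less than their standard error, 79 lost the threshold, 9 gained it and 1 reversed, the MT-ND2 value in H448L at -0.253 without the submission term. The remainder did not pass the threshold and moved across 0 by more than that. The causes were not tested.

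Members called in R227Q against WT numbered 6, but 1 without the submission term and 2 in 4LJFHN alone, and 2 to 6 when each library was left out. In H448L against WT, 1 became 2 by limma-voom and with a mean of at least 10 counts, 3 with upper-quartile factors and with every gene with a count, 5 with GC and length offsets, and 0 without the submission term, in 4LJFHN alone and with the 2 groups compared only, with 0 to 4 over left-out libraries. Offsets called 8 members in R227Q, with all genes split into 1001 higher and 1944 lower. Over all genes, R227Q calls went from 2944 to 1546 by DESeq2, 312 without the submission term and 1138 in 4LJFHN alone (1093 to 3262 over left-out libraries). H448L calls went from 1347 to 733, 147 and 734 under the same settings and 756 with its 2 groups (253 to 1378). H448L against R227Q calls went from 35 to 54 by DESeq2, 122 with every gene with a count, 1 without the submission term and 22 with its 2 groups (4 to 91). Without NDUFA4, NDUFA4L2 and NDUFC2-KCTD14, the mean summed level was 5783 CPM in R227Q, 5832 in H448L and 5938 in WT, against 6187, 6216 and 6356 with them. Scaled by TMM, the means with them were 6210 CPM in R227Q, 6112 in H448L and 6499 in WT. These means pool the submissions, which the genotypes share unevenly. H448L has no library in SDKYMR, where every sum lay above those of 4LJFHN, so the means are not compared between genotypes.

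With the replicate number as a block, 5, 1 and 0 members passed in R227Q against WT, H448L against WT and H448L against R227Q, and 2669, 1055 and 31 of all genes. Correlations across genes of 9 same-number pairs ran from -0.724 to 0.804, with 2 over 0.1. They used deviations from group means, which keep the submission difference. R227Q 1 was at 0.804 with WT 1 and at 0.803 with WT 2, all in SDKYMR. These correlations therefore cannot show whether the numbers pair the samples. Adding the counts of NDUFB4P12 and NDUFC2-KCTD14 to their parent genes, chosen after seeing the data, left 6, 1 and 0 members called. With 1 WT library in 4LJFHN and 1 R227Q library in SDKYMR, calls lean on single libraries, and fits that leave 1 library in an arm assume it varies like the others. The median standard error of a member's log2 fold change was 0.05, which limits what these 9 libraries can show.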
